A study of Homo sapiens with 12 samples.

Results

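The knockdown of ACSL5 in the absence of added palmitate was examined in LM3 cells by comparing the 3 libraries labelled shACSL5 with the 3 labelled shControl, which are 6 of the 12 libraries of the series. The libraries were chosen by their labels alone, and all genes of the count table entered the comparison. LM3 is, per the series description, the cell whose ACSL5-wildtype and ACSL5-deficient forms were sequenced, and the samples give MDA-MB-231, a human triple-negative breast cancer line, as the cell line and lung metastatic breast cancer cells as its kind. Cells of both groups were grown in DMEM with fetal bovine serum and antibiotics, and RNA was selected for poly(A) tails. The shControl group carried a control short hairpin RNA and the shACSL5 group a hairpin against ACSL5, and no palmitic acid was named for either. The study concerns ACSL5 in metastasis of breast cancer to lung, and this comparison addresses the knockdown on its own. The other 6 libraries, given palmitic acid, were used only in an alternative fit. The labels give neither the hairpin sequence nor the number of hairpins, and do not say whether the cells were a pool or a clone. An off-target effect of the hairpin, or a difference between cell derivations, cannot be told apart from an effect of lower ACSL5. The labels do not state whether the replicates of a group came from separate cultures, and the p-values below measure the spread among these libraries, technical spread included.

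ACSL5 is one of the long-chain acyl-CoA synthetases, enzymes that join a fatty acid to coenzyme A and so commit it to oxidation, to storage as triglyceride or to membrane lipid synthesis. It sits on mitochondrial and endoplasmic reticulum membranes and is best known from intestine and liver. The family members ACSL1, ACSL3 and ACSL4 do the same reaction with other substrate preferences and locations, ACSL4 favouring arachidonate.

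The 6 libraries held 16788694 to 21814751 counts, and TMM scaling factors ran from 0.98 to 1.02. Libraries of one group correlated at 0.995 to 0.996 in log2 CPM (counts scaled to the library total) across genes and libraries of different groups at 0.969 to 0.973, and the first principal component, with 81.2% of the variance, separated the groups. All 8 markers listed as present in MDA-MB-231 were expressed, VIM at 3967 CPM and CD44 at 376 CPM in shControl among them. Of the receptors and epithelial genes listed as low, ESR1, PGR, CDH1, ESRP1, GRHL2 and KRT5 were below 0.3 CPM, while ERBB2 averaged 77.8 CPM in control and 60.8 CPM in knockdown cells, and EPCAM rose from 2.23 to 4.30 CPM. Of markers of other cell types, PTPRC and CD3E of immune cells, DCN and COL1A2 of fibroblasts, EMCN of endothelium, and SFTPC and SCGB1A1 of lung epithelium were at or near 0. Others were present: COL1A1 averaged 11.5 and 13.7 CPM in control and knockdown cells, PDGFRB 9.91 and 14.3, RGS5 6.74 and 4.63, ACTA2 3.89 and 1.46, KDR 2.77 and 1.44, and CDH5 1.17 and 0.105, and all of these but COL1A1 were called. Summed levels did not overlap between the groups for any of the 6 lists. For comparison, 64.2% of all genes tested were called and 67.6% did not overlap between the groups. The MDA-MB-231 markers came to 9568 to 9782 CPM across shControl libraries against 7553 to 7694 CPM across shACSL5 libraries. These markers did not move together. VIM, MSN, LGALS1 and ANXA1 fell (log2 changes of -0.57, -0.38, -0.71 and -0.45), EGFR and AXL were called higher (0.28 and 0.08), and CD44 and CAV1 were not called. The genes listed as low, almost all ERBB2, came to 76.0 to 85.3 against 61.1 to 67.7 CPM. Immune markers, almost all CD68, came to 35.2 to 37.9 against 48.8 to 54.2 CPM, and lung epithelial markers, almost all NKX2-1, to 44.2 to 47.2 against 38.7 to 40.0 CPM. Fibroblast and mural markers came to 31.2 to 33.2 against 33.5 to 36.1 CPM and endothelial markers to 3.797 to 5.90 against 1.86 to 2.15 CPM. The part of these shifts in the results below was not tested.

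The targeted transcript fell in every knockdown library. ACSL5 (ENSG00000197142, GRCh38 chr10:112374018-112428380, plus strand) was at 142, 144 and 145 CPM in the control libraries and 11.05, 10.5 and 12.7 CPM in the knockdown libraries. The groups lay far apart, with 7.93% of the control level remaining (144 ± 1.43 to 11.4 ± 1.19 CPM, SD, n = 3; log2 change -3.65, SE 0.06, adjusted p = 9.34e-31). An exact two-sided permutation test of the 3 against 3 libraries gave p = 0.10, the smallest such a design allows. Of the other family members, ACSL3 fell (184, 176 and 168 CPM in the control libraries and 128, 126 and 111 CPM in the knockdown libraries; log2 change -0.53). ACSL4 fell less, from 281 to 233 CPM (log2 change -0.27, SE 0.04, adjusted p = 2.1e-07), and this call was lost, with the sign turned, once a dependence on GC content and length described next was removed (log2 change 0.024). ACSL1 stood at 31.8, 33.5 and 33.9 CPM in the control libraries and 34.7, 37.8 and 38.8 CPM in the knockdown libraries, a small rise (log2 change 0.16, SE 0.07, adjusted p = 0.0395) that DESeq2 did not call (adjusted p = 0.139) and that was lost without shControl 1, shControl 2, shACSL5 2 or shACSL5 3 (adjusted p of 0.0651 to 0.147). None of these 3 members gained as many CPM as ACSL5 lost.

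The change reached most of the transcriptome, but mostly in small steps. Of 14207 genes tested, 9124 (64.2%) were called at an adjusted p under 0.05, with 4566 (32.1%) higher and 4558 (32.1%) lower in shACSL5. The even split depended on the scaling: with library sizes alone 44.8% of called genes were higher (4087 higher and 5040 lower), and with the trend in GC content and length described next removed, 54.0% (4881 and 4153). Among those called, 54.2% had an absolute log2 change under 0.5. At least a 2-fold change was seen in 1379 genes (9.71%), with 514 higher (3.62%) and 865 lower (6.09%), and 76 rose and 135 fell at least 4-fold. Libraries of the groups did not overlap for 67.6% of genes. With so high a background, a list of genes is described below by how its called members divide between the directions, against 32.1% each way for all genes, and by its median, against 0.001 for all genes. Lists and members were chosen with earlier results of these data known, and some lists hold genes of the largest changes. Their counts describe the members and test no pathway. In bulk RNA, fewer cells of a kind and less RNA per cell cannot be told apart.

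The change also followed the composition of the transcripts. With genes divided into 4 equal groups by GC content, the group of lowest GC had a median log2 change of -0.227 and that of highest GC a median of 0.164. Divided by exon length, the shortest group had a median of 0.18 and the longest a median of -0.162. Slopes were taken on the deviation of each library from the gene's mean over the 6 libraries. They are therefore relative, and a trend that differs between the groups gives them opposite signs. On this scale the slope on GC was -0.109 to -0.0552 log2 per 10% GC in the shControl libraries and 0.0462 to 0.124 in the shACSL5 libraries. GC and length thus moved with the groups. The lists were therefore also counted after a GC and length trend was removed from every library, and those counts stand beside the lists that leaned most to one side. That fit called 9034 genes, 7754 of them shared with the fit as tested and 7603 in the same direction. The part of this dependence in any result was otherwise not tested.

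**Figure D1:**
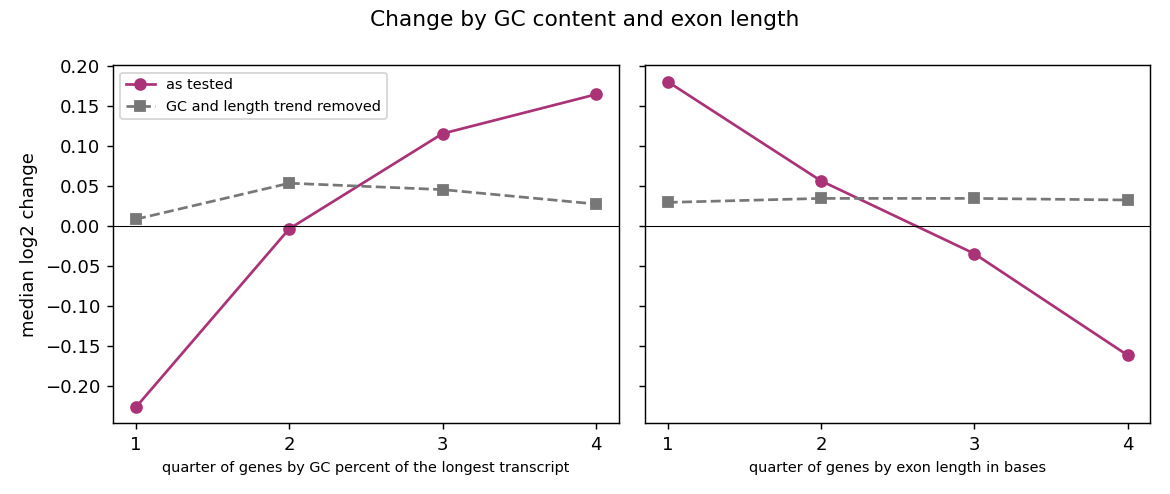
Median log2 change (shACSL5 against shControl, vertical axis) of genes in 4 equal groups by GC percent of the longest transcript (left) and by exon length in bases (right), as tested and after the trend was removed. The medians run from -0.227 to 0.164 over GC groups and from 0.18 to -0.162 over length groups, and lie close to 0 once the trend is removed.

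The largest rises among genes averaging 10 CPM or more included secreted peptides, matrix proteases and enzymes. ADM, which encodes the vasodilator peptide adrenomedullin, was at 3.44, 2.37 and 3.69 CPM in the control libraries and 24.1, 24.1 and 21.4 CPM in the knockdown libraries (7.31-fold; log2 change 2.87, SE 0.13, adjusted p = 4.16e-19). SUSD2, a membrane protein with sushi domains, was at 7.22, 8.098 and 8.12 CPM in the control libraries and 54.8, 51.6 and 57.7 CPM in the knockdown libraries (6.99-fold). ANKRD1, a cardiac ankyrin repeat protein and a common YAP target, rose from 30.2 to 204 CPM (6.76-fold). In each of these 3 genes the lowest knockdown library stood above the highest control library by several fold. A lack of overlap was required for their choice. SPHK1, the kinase that makes sphingosine 1-phosphate, was at 5.27, 6.23 and 5.38 CPM in the control libraries and 31.6, 26.5 and 34.2 CPM in the knockdown libraries (log2 change 2.45, SE 0.11, adjusted p = 3.67e-19). The protease genes ADAMTS6 and ADAMTS1, of the ADAMTS family, had log2 changes of 2.502 ± 0.11 and 2.14 ± 0.10 (SE). Matrilin gene MATN2 had a log2 change of 2.18 ± 0.13, and FST, which encodes the activin-binding protein follistatin, of 1.88 ± 0.11. The rest of the 15 largest rises were KRTAP2-3, CD163L1, ATOH8, INSYN2B, HSD17B10, DYNLRB1 and H2AX. KRTAP2-3 is uncertain, because 38.6% of its 50-base stretches occur in other genes.

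Some genes that most cells express also changed strongly. HSD17B10, a mitochondrial dehydrogenase that also serves in transfer RNA processing, was at 9.68, 8.48 and 9.91 CPM in the control libraries and 58.1, 53.2 and 60.4 CPM in the knockdown libraries (6.11-fold; log2 change 2.61, SE 0.08, adjusted p = 1.07e-23). DYNLRB1, a dynein light chain, was at 33.7, 32.8 and 37.5 CPM in the control libraries and 152, 158 and 166 CPM in the knockdown libraries (4.57-fold). H2AX, the histone variant phosphorylated at DNA breaks, was at 46.5, 45.7 and 48.7 CPM in the control libraries and 187, 173 and 191 CPM in the knockdown libraries (3.92-fold). FTL, the ferritin light chain, was at 502, 505 and 525 CPM in the control libraries and 1306, 1266 and 1305 CPM in the knockdown libraries. In the other direction COX5A, a nuclear-encoded subunit of cytochrome c oxidase, was at 96.3, 102 and 96.4 CPM in the control libraries and 30.1, 32.99 and 34.7 CPM in the knockdown libraries, which left 33.1% of the control level. YWHAZ, a 14-3-3 adapter protein, was at 1780.5, 1802 and 1805 CPM in the control libraries and 873, 870.4 and 854 CPM in the knockdown libraries (48.2% remaining). The cytosolic isocitrate dehydrogenase gene IDH1 fell from 199 to 77.5 CPM (log2 change -1.36, SE 0.04, adjusted p = 8.31e-24). For each of these 7 genes the libraries of the groups were separated by far more than they differed within a group. The choice of these genes required that the groups did not overlap.

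The largest falls included cytoskeletal and membrane proteins. DPYSL3, a collapsin response mediator that binds actin and tubulin, was at 28.9, 31.8 and 31.6 CPM in the control libraries and 2.796, 2.36 and 2.69 CPM in the knockdown libraries (log2 change -3.55, SE 0.12, adjusted p = 6.02e-23). AFAP1L2, an adapter of actin filaments, fell from 20.8 to 2.604 CPM, and MYH10, the heavy chain of nonmuscle myosin IIB, fell from 54.6 to 10.6 CPM. GSN, which encodes the actin-severing protein gelsolin, was at 113, 116 and 117 CPM in the control libraries and 22.4, 21.8 and 22.2 CPM in the knockdown libraries (19.2% remaining; log2 change -2.38, SE 0.06, adjusted p = 4.17e-27). The tetraspanins CD82, a known suppressor of metastasis, and TSPAN6 fell with log2 changes of -2.48 ± 0.10 and -2.43 ± 0.09 (SE). BHLHE40, a circadian and hypoxia-responsive repressor, was at 95.9, 101 and 102 CPM in the control libraries and 21.95, 21.3 and 21.3 CPM in the knockdown libraries. JCAD, a junctional protein, TNIK, a kinase of WNT signalling, ADGRG1, an adhesion receptor, and MAPT, the microtubule protein tau, had log2 changes of -2.74, -2.28, -2.24 and -2.19. GNAL, SYT17 and RIMS3 completed the 15 largest falls, and 28.13% of the exon bases of GNAL are shared with MPPE1. Of 30 tested chromosomal neighbours of the rising genes, 1 was called at least 2-fold in the same direction, and of 30 neighbours of the falling genes, 2 were. Among all genes tested, 3.62% were called at least 2-fold higher and 6.09% at least 2-fold lower, so these counts are near the background.

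**Figure D2:**
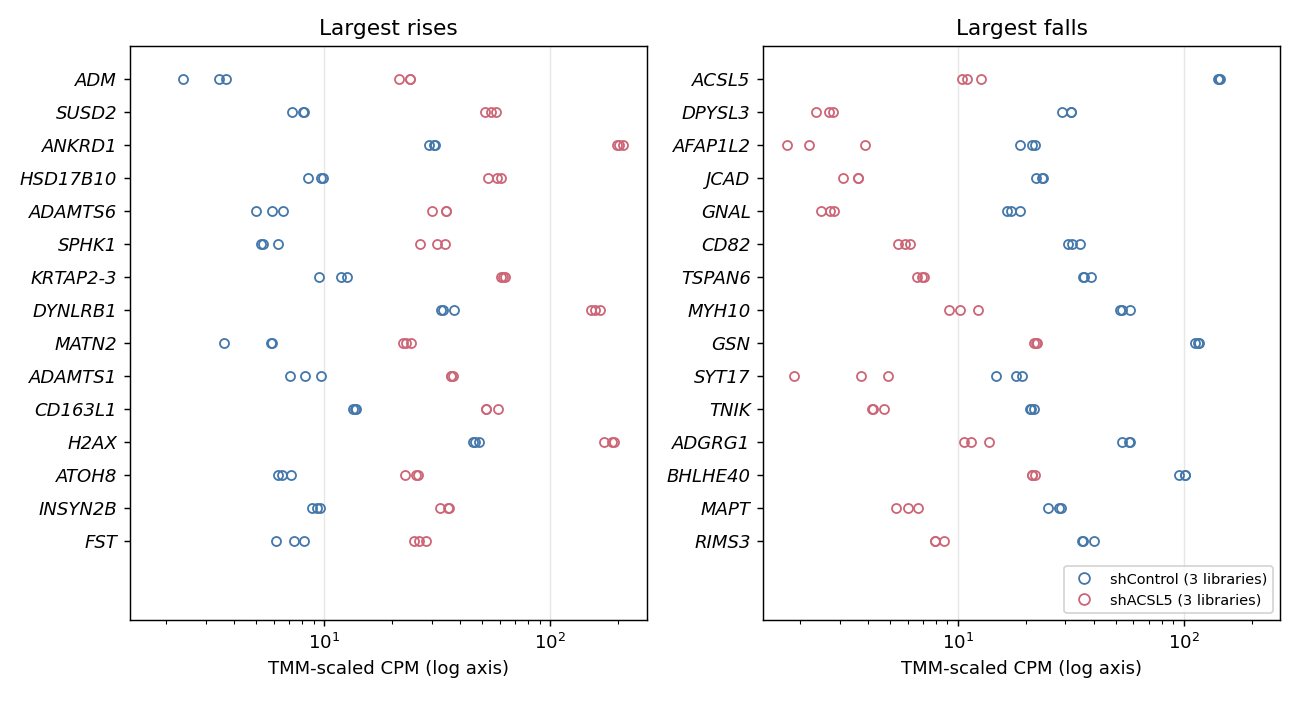
TMM-scaled CPM (log axis) in each library for the 15 largest rises (left) and 15 largest falls (right) among called genes that averaged 10 CPM or more and whose groups did not overlap. Blue circles are the 3 shControl libraries and red circles the 3 shACSL5 libraries, and the groups are apart in each gene because the choice of genes required it.

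**Figure D3:**
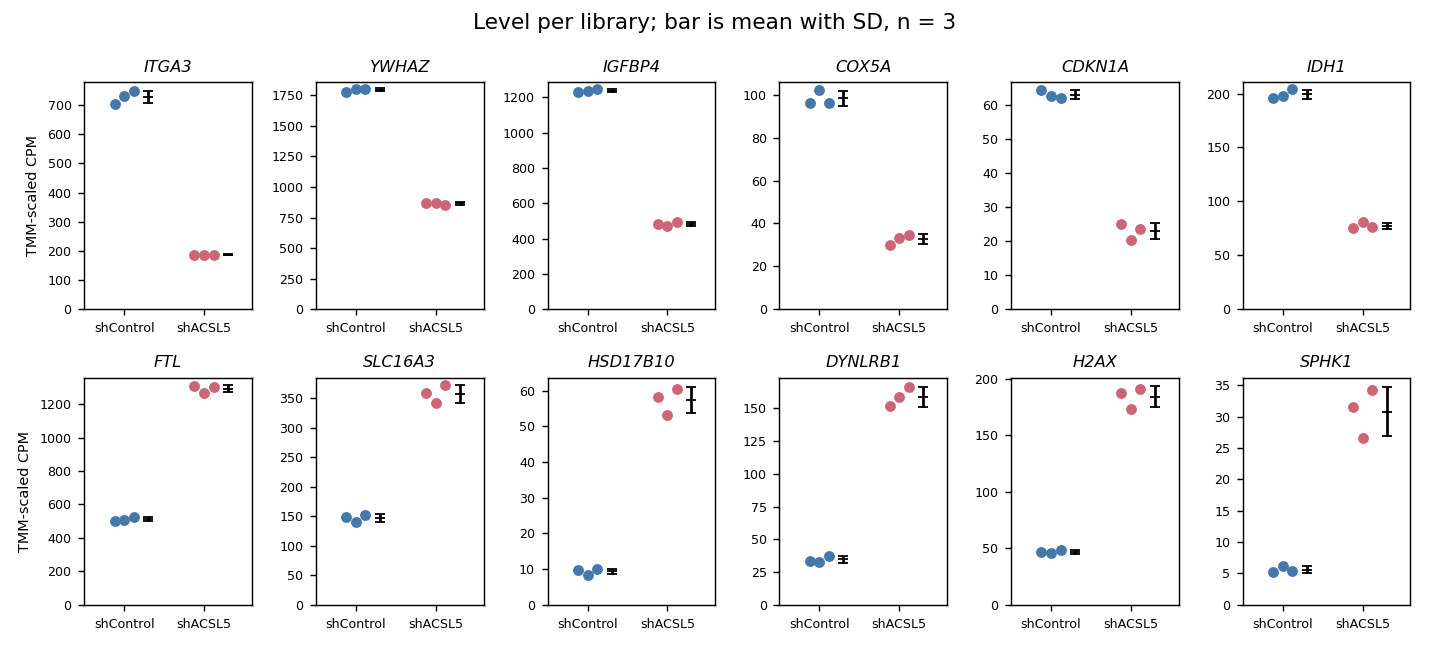
TMM-scaled CPM (vertical axis, from 0) in each library for 12 named genes, blue for shControl and red for shACSL5, with mean and SD (n = 3) at the right of each group. ITGA3, YWHAZ, IGFBP4, COX5A, CDKN1A and IDH1 were lower in all 3 shACSL5 libraries and FTL, SLC16A3, HSD17B10, DYNLRB1, H2AX and SPHK1 higher. Their choice required groups that did not overlap.

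The machinery of translation took a larger share of the transcripts after knockdown. Of 79 cytosolic ribosomal protein genes, 76 were higher and 1 lower (median 0.351), and their summed level went from 53630 to 67071 CPM. The 10 largest gains in CPM included the elongation factor genes EEF1A1, EEF2 and EEF1G, the ribosomal protein genes RPS2, RPLP0 and RPSA, and PABPC1, which encodes the poly(A)-binding protein. RPLP0 stood at 1893, 1936 and 1980.2 CPM in the control libraries and 2792, 2723 and 2866 CPM in the knockdown libraries (log2 change 0.53, SE 0.02, adjusted p = 1.52e-19), and EEF2 rose from 2320.4 to 3268 CPM. RPL12 had a log2 change of 0.62, while RPL10 fell (-0.301). RPS2, RPL10 and EEF1G share most of their sequence with other genes, so their reads may be split. Of 51 genes of ribosome biogenesis and RNA polymerase I, 49 were higher and 1 lower (median 0.526). RRP9, which works on small subunit processing, was at 36.3, 35.3 and 37.7 CPM in the control libraries and 71.3, 68.4 and 78.9 CPM in the knockdown libraries, IMP4 rose from 50.6 to 99.4 CPM and BOP1, a large subunit processing factor, rose from 137 to 265 CPM. The 1 lower gene, TAF1D, turned to 0.07 without the GC and length trend. With that trend removed the counts were 69 higher and 5 lower for ribosomal proteins (median 0.271), and 48 higher and 1 lower for biogenesis (median 0.555).

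Most genes of DNA replication rose while those of mitosis divided. Of 59 genes of replication and nucleotide supply, 49 were higher and 1 lower (median 0.313; 49 and 3 with the trend removed). GINS3, part of the replicative helicase, was at 18.4, 19.9 and 19.9 CPM in the control libraries and 38.4, 34.9 and 37.1 CPM in the knockdown libraries (log2 change 0.92, SE 0.08, adjusted p = 1.99e-12). CDC25A, a phosphatase that starts S phase, rose from 51.6 to 94.95 CPM, RPA2, which coats single-stranded DNA, from 67.3 to 123 CPM, and E2F1, the factor that drives S phase genes, from 65.9 to 111 CPM. Helicase subunit gene MCM2 rose by 0.897 on the log2 scale, with 23.62% of its exon bases shared with another gene. POLD3 was the lower one (-0.21), a call lost with the trend removed and without shACSL5 3 (adjusted p = 0.0674). Of 41 genes of mitosis, 14 were higher and 18 lower, and the trend-removed fit turned this balance to 15 and 12. Aurora kinase B gene AURKB and survivin gene BIRC5 rose (0.58 and 0.55) and the kinesin KIF14 and anillin gene ANLN fell (-0.68 and -0.55). MKI67 stood at 762, 756 and 738 CPM in the control libraries and 717, 741 and 731 CPM in the knockdown libraries, and its log2 change of -0.04 was not called. It was called lower with library sizes alone (-0.090, adjusted p = 0.00282) and all 12 libraries (-0.065, adjusted p = 0.0301), and higher with the trend removed (0.096, adjusted p = 8.24e-05).

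The cell cycle inhibitor CDKN1A was at 64.3, 62.5 and 61.9 CPM in the control libraries and 24.9, 20.4 and 23.4 CPM in the knockdown libraries (log2 change -1.45, SE 0.07, adjusted p = 6.84e-19). Of 27 G1 cyclins, CDK inhibitors and related genes tested, 11 were higher and 10 lower. The death receptor gene FAS fell (-1.404), the ribonucleotide reductase subunit gene RRM2B fell (-0.68) and the growth arrest gene GADD45A rose (0.86). Of 62 histone transcripts listed, 27 had an entry in the counts and 13 were tested. Of these 13, 6 were higher and 1 lower, while their summed level went from 484 to 373 CPM. RNA was selected for poly(A) tails, and how far that sets these levels was not tested. H2AC6 rose from 4.36 to 8.77 CPM.

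Promoters of the replication genes were read for a motif of the E2F factors, with the letters TTTNNCGC on either strand, in RefSeq promoters of the GRCh38.p14 build running from 250 bases before to 50 bases after the start. The motif was in 48.0% of 50 replication promoters, against 6.9% of 27305 promoters in the table and 10.7% of those of genes tested. Among members called higher it lay in 19 of 42 (45.2%), and no promoter of the member called lower was among those read. Whether the motif goes with the rise was not tested. Stretches with the motif, or its reverse complement, in capitals are shown for 4 named members that rose, given 5′ to 3′ on the strand of the gene.
GINS3 (chr16:58392455-58392484, plus strand): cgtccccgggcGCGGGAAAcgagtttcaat
CDC25A (chr3:48188443-48188472, minus strand): ggtggattccgTTTGGCGCcaactaggaaa
E2F1 (chr20:33686387-33686416, minus strand): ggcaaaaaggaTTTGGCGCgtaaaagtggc
MCM2 (chr3:127598402-127598431, plus strand): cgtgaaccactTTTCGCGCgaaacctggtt
A match of letters describes the promoter and does not show that a factor binds there.

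Most genes of matrix adhesion fell. Of 23 integrin and laminin genes, 18 were lower and 3 higher (median -0.854), 11 lower and 3 higher by at least 2-fold, and the trend-removed fit also called 18 lower and 3 higher (median -0.842). Integrin alpha 3, ITGA3, a receptor for laminin, was at 705, 730.4 and 749 CPM in the control libraries and 187, 185 and 187 CPM in the knockdown libraries (25.6% remaining; log2 change -1.97, SE 0.03, adjusted p = 5.1e-32). Among laminin chain genes, whose products are ligands of that receptor, LAMA5 was at 408, 416 and 423 CPM in the control libraries and 138, 122 and 141 CPM in the knockdown libraries. In both genes each knockdown library was below each control library, a lack of overlap that the choice of the most changed members required. ITGB3 fell from 17.3 to 4.97 CPM, with 51.57% of its exon bases shared with an overlapping transcript. The 3 that rose were LAMA1, LAMA2 and LAMA4, singled out after their values were seen, with log2 changes of 1.34, 1.82 and 1.55. Unlike ITGA3 and LAMA5, none of them met the rule for examples. It asked for a mean of at least 5 CPM and no overlap between the groups. Their rises therefore carry less weight.

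Collagens, proteases and junction genes leaned the same way. Of 47 collagen and matrix glycoprotein genes, 25 were lower and 13 higher (median -0.346). TNC, the matrix glycoprotein tenascin C, fell from 159 to 59.7 CPM, TGFBI from 109 to 40.6 CPM and COL6A2 from 187 to 79.4 CPM, while SERPINH1, a collagen chaperone, rose from 63.9 to 147 CPM. ESM1, endocan, was at 0.458, 0.275 and 0.369 CPM in the control libraries and 9.93, 10.5 and 10.9 CPM in the knockdown libraries, a rise that rests on few control reads. Of 38 matrix protease and inhibitor genes, 23 were lower and 8 higher (median -0.471). Urokinase gene PLAU fell from 303 to 113 CPM and ADAM10 from 137 to 65.5 CPM. Of 46 junction, cadherin and epithelial genes, 26 were lower and 10 higher (median -0.364). DSC2, a desmosomal cadherin, was at 21.9, 18.7 and 20.4 CPM in the control libraries and 6.898, 6.28 and 5.59 CPM in the knockdown libraries, and CLDN4, a claudin, fell from 47.5 to 14.9 CPM. Nectin gene NECTIN1 and plakophilin gene PKP4 rose (0.99 and 1.04). With the trend removed the lower and higher counts were 27 and 14, 25 and 7, and 26 and 8.

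Cytoskeletal genes also leaned lower, and some were among the largest losses of CPM. Of 70 actin, myosin and focal adhesion genes, 39 were lower and 17 higher (median -0.166). DPYSL3, AFAP1L2 and MYH10, given above among the largest falls, belong to that list. Of 29 intermediate filament and microtubule genes, 16 were lower and 8 higher. VIM, the main filament of mesenchymal cells, was at 3896, 3967 and 4039 CPM in the control libraries and 2669, 2629 and 2721 CPM in the knockdown libraries (log2 change -0.57, SE 0.02, adjusted p = 1.74e-21). ACTG1, TMSB4X, PLEC and AHNAK were also among the 10 largest losses of CPM, with log2 changes of -0.43, -0.53, -0.49 and -0.66. Fascin gene FSCN1, which bundles actin in filopodia, went the other way, from 67.3 to 141 CPM, as did FHL1 (1.05). Nestin gene NES and the microtubule protein genes MAP2 and MAP1B fell (-1.25, -1.898 and -1.17).

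Of 47 axon guidance genes, 28 were lower and 5 higher (median -0.38; 29 and 5 with the trend removed). SEMA6C fell from 9.04 to 2.81 CPM, SEMA6A from 8.295 to 3.14 CPM and the plexin receptor gene PLXNB3 from 21.5 to 8.14 CPM, while SEMA3E, a secreted semaphorin, rose from 6.94 to 18.97 CPM. Of 47 cation channel and calcium genes, 26 were lower and 5 higher (median -0.215; 25 and 8 with the trend removed). The sodium channel gene SCN9A was at 8.88, 8.26 and 8.38 CPM in the control libraries and 2.097, 2.598 and 2.31 CPM in the knockdown libraries, and the calcium pump gene ATP2B4 fell from 151 to 60.3 CPM. Of 78 vesicle traffic genes, 39 were lower and 19 higher (37 and 24 with the trend removed), and RAB15 and RAB6B fell (-1.82 and -1.64). STXBP6, which binds SNARE proteins, stood at 0.229, 0.0551 and 0.0527 CPM in the control libraries and 16.2, 14.7 and 13.2 CPM in the knockdown libraries, and so few control reads set no firm fold.

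**Figure D4:**
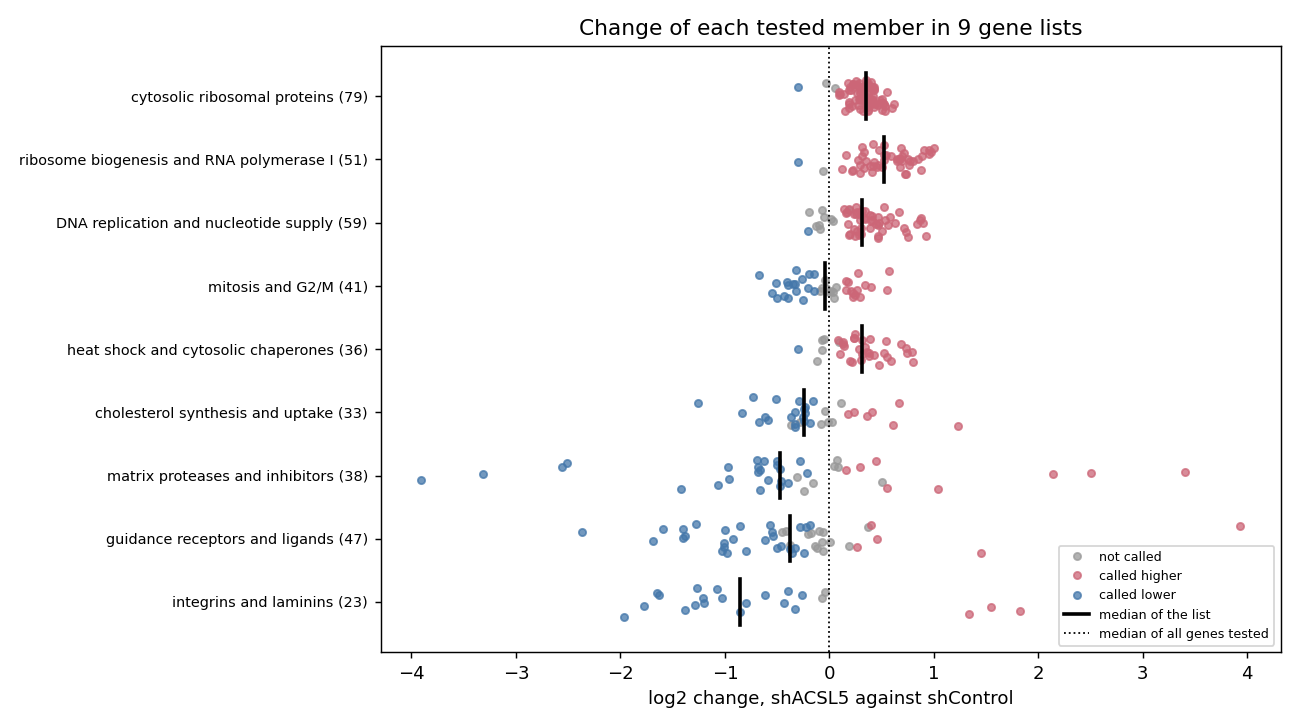
Log2 change (shACSL5 against shControl, horizontal axis) of every tested member in 9 gene lists, red called higher, blue called lower, grey not called, with the list median as a black bar and the median of all genes as a dotted line. Ribosomal, biogenesis, replication and heat shock members lie mostly to the right, and integrin and laminin members mostly to the left with a median of -0.854.

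Lipid genes changed in both directions. Of 17 genes of fatty acid activation and uptake, 4 were higher and 9 lower (median -0.184), ACSL5 itself among the lower. The transporter gene SLC27A1 and the acetyl-CoA synthetase gene ACSS2 fell (-0.95 and -0.86), and FABP5, a fatty acid binding protein gene, rose from 156 to 198 CPM. Of 30 oxidation genes, 8 were higher and 13 lower (median -0.114). CPT1A, which admits long-chain fatty acids to mitochondria, stood at 49.2, 54.9 and 52.9 CPM in the control libraries and 49.3, 47.9 and 53.6 CPM in the knockdown libraries and was not called, CRAT and EHHADH fell (-0.84 and -0.92), and HADH and ACADVL rose (0.34 and 0.32). Of 20 synthesis genes, 7 were higher and 7 lower. FASN, the fatty acid synthase, rose from 646 to 877 CPM, and ACACA, which makes its substrate, rose from 203 to 263 CPM, whereas the desaturase gene SCD fell from 1275 to 922 CPM and the malic enzyme gene ME1 from 49.05 to 22.9 CPM.

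Cholesterol genes fell more often. Of 33 genes of synthesis and uptake, 19 were lower and 7 higher (median -0.24; 18 and 5 with the trend removed). HMGCS1, an early enzyme of the pathway, was at 217, 207 and 215 CPM in the control libraries and 127, 136 and 121 CPM in the knockdown libraries (log2 change -0.73, SE 0.04, adjusted p = 1.29e-16), and MSMO1, a late one, fell from 209.98 to 118 CPM. The liver X receptor gene NR1H2 rose (1.24). SREBF2, the regulator of the pathway, was at 358, 377 and 369 CPM in the control libraries and 358, 358 and 378 CPM in the knockdown libraries and was not called, while SREBF1 fell (-0.33). The sterol element with the letters CACCCCA lay in 18.5% of 27 promoters of the list and 7.8% of all promoters. Among members called lower it lay in 1 of 15 (6.7%) and among those called higher in 1 of 6 (16.7%), against 7.1% of promoters of genes tested. Its stretch in the regulator is shown in capitals, the element being one through which the pathway is known to be controlled.
SREBF2 (chr22:41832962-41832990, plus strand): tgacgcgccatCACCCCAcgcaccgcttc

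Of 58 glycerolipid and lipid droplet genes, 23 were higher and 25 lower. GPAT3, which begins triglyceride synthesis, fell from 49.98 to 22.95 CPM, DGAT2 rose from 7.82 to 11.9 CPM and DGAT1, for which log2 change was -0.15, was not called. DGAT1 was called lower with library sizes alone, a mean CPM of at least 5, all 12 libraries, a replicate block, without shControl 1 and without shACSL5 3 (adjusted p of 0.0128 to 0.0496), and with the trend removed (log2 change -0.303, adjusted p = 6.82e-05). Choline kinase gene CHKA rose from 19.5 to 46.6 CPM. Sphingolipid genes stood at 13 higher and 13 lower of 39, SPHK1 and SPHK2 rising (2.45 and 1.07) and acid ceramidase gene ASAH1 falling (-0.72).

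Most nuclear genes of the respiratory chain rose slightly. Of 35 complex I subunit genes, 22 were higher and 3 lower (median 0.235), and of 42 in complexes II to V, 31 were higher and 2 lower (median 0.226). ATP synthase gene ATP5MC1 rose from 50.2 to 80.3 CPM, cytochrome gene CYC1 from 186 to 251 CPM and NDUFS5 from 96.6 to 138 CPM. These lists were more sensitive to composition: with the trend removed the counts were 19 higher and 5 lower (median 0.15), and 25 higher and 6 lower (median 0.11), and NDUFA5, NDUFS1 and UQCRB turned from lower to a log2 change of 0.259, 0.103 and 0.008. The fall of NDUFA5 was also lost without shControl 1, shControl 3 or shACSL5 3 (adjusted p of 0.0536 to 0.0673). COX5A, given above, was the other lower gene of complexes II to V. Subunits encoded in mitochondrial DNA were not analysed here. Of 35 genes of the citrate cycle and pyruvate entry, 14 were higher and 15 lower.

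Most heat shock genes rose while other stress programmes divided. Of 36 heat shock and cytosolic chaperone genes, 30 were higher and 1 lower (median 0.31; 31 and 3 with the trend removed). HSPA8 was at 1923, 1977 and 1981 CPM in the control libraries and 2516, 2580.5 and 2561 CPM in the knockdown libraries (log2 change 0.38, SE 0.02, adjusted p = 2.22e-16), HSP90AB1 rose from 2316 to 3020.2 CPM and the regulator HSF1 rose from 131 to 219 CPM, while HSP90AA1 was the lower one (-0.301). The heat shock element with the letters GAANNTTC lay in 28.1% of 32 promoters of the list against 6.9% of all promoters. Among members called higher it lay in 8 of 26 (30.8%), against 4.6% of promoters of genes tested. It is shown in capitals in HSPA8, an abundant member that rose.
HSPA8 (chr11:123062348-123062377, minus strand): ggggcgagcttGAAAGTTCcagaacgctgc

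Of 44 genes of amino acid stress under ATF4, 25 were lower and 13 higher (median -0.112; 22 and 17 with the trend removed). CHAC1, which degrades glutathione, was at 12.8, 16.2 and 14.3 CPM in the control libraries and 2.61, 3.75 and 2.85 CPM in the knockdown libraries (log2 change -2.25, SE 0.15, adjusted p = 7.81e-15), and SLC1A4, a neutral amino acid transporter, was at 17.99, 19.4 and 20.3 CPM in the control libraries and 4.33, 4.95 and 5.48 CPM in the knockdown libraries. ALDH18A1 and PYCR1 of proline synthesis rose (0.97 and 0.75), as did PPP1R15A and ATF3 (1.08 and 0.83), and ATF4 was slightly lower (-0.203). The amino acid response element with the letters TGATGNAA lay in 30.6% of 36 promoters of the list, against 3.7% of all promoters and 1.7% of promoters of genes tested. Among members called higher it lay in 4 of 11 (36.4%) and among those called lower in 5 of 21 (23.8%). The element is shown in capitals in 1 member that fell and 1 that rose, which both hold it.
CHAC1 (chr15:40953251-40953280, plus strand): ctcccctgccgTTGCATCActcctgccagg
ATF3 (chr1:212565205-212565234, plus strand): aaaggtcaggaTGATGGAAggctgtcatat

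The endoplasmic reticulum chaperones were even, with 11 higher and 12 lower of 32 (13 and 11 without shControl 2). Of 47 genes of NRF2, glutathione and thioredoxin, 27 were higher and 14 lower (median 0.215), and 22 and 17 with the trend removed (median 0.037). Their summed level went from 6051 to 6784 CPM, so the falling genes named next go against the lean of the list. NFE2L2, which encodes NRF2, fell from 115 to 83.4 CPM and its inhibitor gene KEAP1 rose from 88.8 to 172 CPM. The NRF2 target AKR1C3 fell from 24.7 to 9.797 CPM and GCLM from 198 to 107 CPM, while TXNIP, a thioredoxin inhibitor and glucose sensor, was at 16.6, 16.4 and 16.3 CPM in the control libraries and 42.9, 48.998 and 48.3 CPM in the knockdown libraries. Of 21 iron genes, 13 were higher and 6 lower, FTL among the higher. Of 41 glycolysis and hypoxia genes, 22 were lower and 11 higher, with HIF1A falling from 559 to 345 CPM, EPAS1 from 29.8 to 14.2 CPM and the lactate exporter gene SLC16A3 rising to 359, 342 and 372 CPM from 148, 140.5 and 153 CPM.

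Signalling genes changed in both directions. Of 39 genes of the EGFR family and MAPK feedback, 20 were lower and 10 higher (median -0.258), and 19 and 12 with the trend removed (median -0.127). Their summed level went from 6551 to 5164 CPM. Against that lean, EGFR rose from 663 to 808 CPM and DUSP1 rose (1.38). Of 44 TGF-beta and BMP genes, 15 were higher and 20 lower. Targets of BMP such as ID3 and SMAD6 rose (1.59 and 1.17), as did the antagonist genes FST and NOG (1.88 and 1.19), and the TGF-beta targets SKIL and PMEPA1 fell (-1.098 and -1.002). IGFBP4, a binding protein of insulin-like growth factors, was at 1231, 1237 and 1247 CPM in the control libraries and 485, 473 and 494 CPM in the knockdown libraries. Of 35 YAP targets, 16 were higher and 11 lower, with ANKRD1 and FJX1 up (2.76 and 1.23) and CCN2 and YAP1 down (-0.67 and -0.49). Of 65 genes of the KLF, SOX, FOX, AP-1, EGR and ETS families, 20 were higher and 29 lower (18 and 17 when tested against a 1.2-fold change), KLF7 falling from 30.3 to 7.36 CPM and FOXC1 rising from 10.5 to 23.4 CPM.

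Interferon-stimulated genes leaned lower, with 28 lower and 8 higher of 50 (median -0.181; 28 and 9 with the trend removed). DDX60, a helicase of antiviral sensing, was at 27.5, 23.03 and 23.3 CPM in the control libraries and 6.15, 4.35 and 5.804 CPM in the knockdown libraries. GBP2, a guanylate-binding protein gene, fell from 92.9 to 32.3 CPM, while OAS1 rose from 2.72 to 7.29 CPM. Among 28 genes of MHC presentation, 10 were higher and 8 lower, a balance that was 8 and 9 with library sizes alone. HLA-C and HLA-B fell (-0.99 and -0.68) and TAPBP, a chaperone of peptide loading, rose (0.92). The HLA genes are alike in sequence, so reads may be split between them.

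Among genes linked to the mesenchymal state, 5 were higher and 7 lower of 22. S100A4 fell from 13.4 to 5.63 CPM, SNAI2 was not called (0.07), and ZEB1, at 94.4, 64.1 and 71.03 CPM in the control libraries and 48.8, 50.8 and 44.7 CPM in the knockdown libraries, varied widely between libraries. Its fall (-0.67) was a call lost with the trend removed and without shControl 3 or any 1 shACSL5 library (adjusted p of 0.0572 to 0.0942). Of 21 genes reported to mark lung metastasis of MDA-MB-231, 7 were higher and 9 lower. NEDD9, a scaffold of focal adhesions, was at 3.15, 3.03 and 3.74 CPM in the control libraries and 15.5, 13.2 and 15.8 CPM in the knockdown libraries. TNC and SPARC fell (-1.41 and -0.79).

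Of 40 long noncoding RNAs tested, 20 were higher and 4 lower (median 0.174; 22 and 7 with the trend removed). DANCR was at 25.5, 28.4 and 27.7 CPM in the control libraries and 68.2, 69.5 and 71.2 CPM in the knockdown libraries, and MIR100HG fell from 99.2 to 41.98 CPM. Of 64 lysosome and autophagy genes, 20 were higher and 27 lower, with the autophagy receptor gene TAX1BP1 at 136, 124 and 124 CPM in the control libraries and 47.3, 48.7 and 44.8 CPM in the knockdown libraries, the lysosomal acid lipase gene LIPA falling from 106 to 41.9 CPM and TFEB falling from 5.24 to 3.41 CPM.

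**Figure D5:**
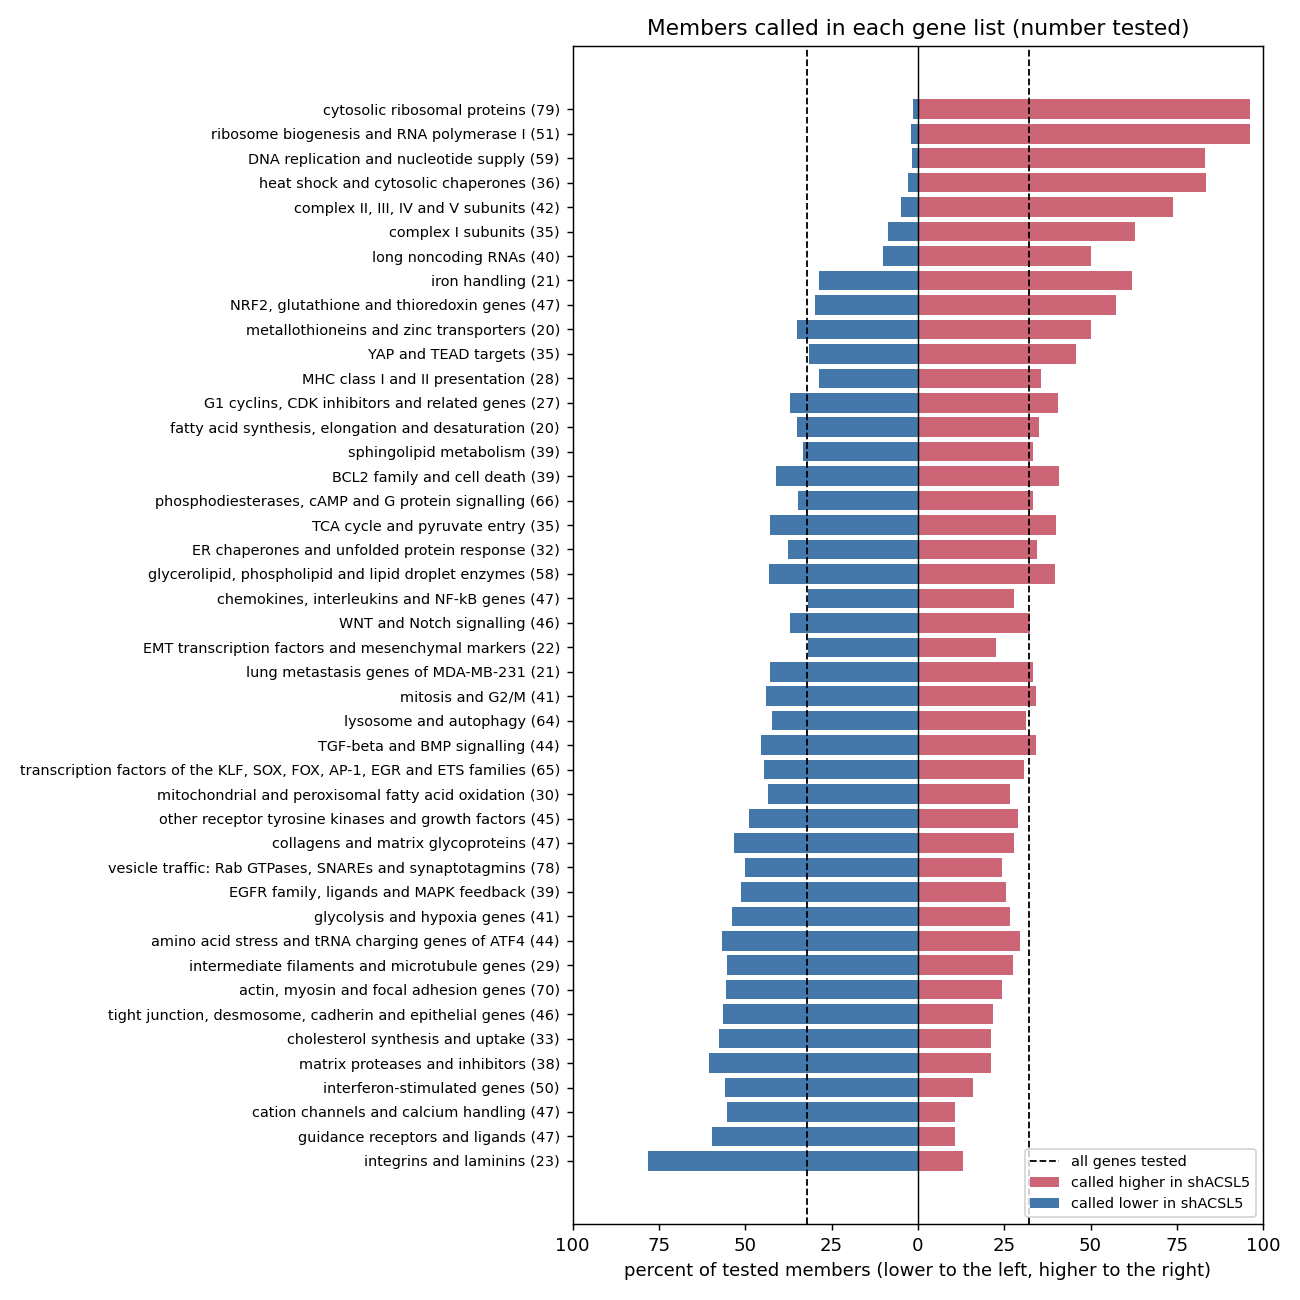
Percent of tested members called higher (red, to the right) and lower (blue, to the left) in each gene list with at least 20 tested members, ordered by the difference. Dashed lines mark 32.1%, the share of all genes tested in each direction, and the lists run from integrins and laminins and guidance genes at one end to ribosomal proteins and ribosome biogenesis at the other.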

How the data were processed

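The deposited table holds unnormalized whole-number read counts for each gene. The submitters' processing notes name the GRCh38 build and, without their roles, HISAT2 2.1.0, featureCounts and fastp 0.22.0. No source used here states the strand setting or annotation, so reads of a gene and an antisense partner may be mixed.

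Genes were kept with filterByExpr, scaled with TMM and tested on the 6 libraries by the quasi-likelihood method of edgeR 4.0.16 (R 4.3.3) with Benjamini-Hochberg adjustment. SE is the absolute log2 change divided by the square root of F. Levels are TMM-scaled CPM, a mean ± SD over 3 libraries where an SD is given. Positions and overlaps come from GENCODE v29. Promoters of chromosome 8 were left out of the motif counts. Libraries of one group differed by more than counting noise (chi-square per degree of freedom 2.54 to 3.89), so all 6 were counted. The test was checked on simulated counts. It missed the first rule set for recovery of changed genes, and that rule was then replaced by one on genes with higher counts, since the genes missed had low counts; the test itself was not altered. Alternatives included DESeq2 1.42.0, limma voom, other scalings and filters, and leaving out each library.

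Named genes were the ACSL family, the 15 largest rises and falls, the 10 largest gains and losses of CPM, up to 4 called members each way per list, and regulators of each pathway. The largest changes and the list members were taken from called genes whose groups did not overlap, so that separation was fixed by the choice. Some genes that this rule names are counted in the lists but not reported here. Members and lists were chosen with earlier results of these data known.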

Additional observations from a re-analysis of the deposited data

How the results depend on the processing

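The number of genes called was 9123 to 9189 with other scaling, no filter or all 12 libraries, and 8061 with DESeq2. Tested against a 1.2-fold change, 5339 genes were called, 2539 higher and 2800 lower. With a mean CPM of at least 5 fewer genes were tested, and 664 changed at least 2-fold. Leaving out each library in turn gave 8538 to 8830 genes called, 4262 to 4427 higher, 4264 to 4403 lower, 1415 to 1485 at least 2-fold, 49.9 to 50.2% of called genes higher (44.8% with library sizes alone, 54.0% with the trend removed), and an ACSL5 log2 change of -3.74 to -3.60. A replicate block gave 9327 called genes, 9092 of them shared. Correlations of deviations between same-numbered libraries were 0.038, -0.013 and 0.196, and between other-numbered libraries of different groups -0.196 to 0.159. The highest was that of the libraries numbered 3, and so few values do not settle whether the numbers pair the libraries.

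Some log2 changes reversed. CD44, at 0.019 and not called as tested, was -0.027 with library sizes alone and -0.002 with all 12 libraries, and was called higher with the GC and length trend removed (0.178, adjusted p = 4.03e-08). With a library left out, SNAI2 ran from -0.024 (without shControl 1) to 0.181, and SREBF2 from -0.041 to 0.003 (without shControl 2; 0.002 without shACSL5 2). With the GC and length trend removed, which was added after seeing the data, ACSL4 was 0.024, TAF1D 0.070, NDUFA5 0.259, NDUFS1 0.103, UQCRB 0.008, SDF2L1 -0.054, IREB2 0.065, SPTLC1 0.035 and MKI67 0.096. The cause was not tested.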
